A study of Mus musculus with 6 samples.

Results

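The 10 genes described here encode the surfactant proteins and other products of alveolar type 2 cells, and were chosen by symbol: Sftpa1, Sftpb, Sftpc, Sftpd, Sfta2, Abca3, Lamp3, Napsa, Slc34a2 and Lpcat1. Each symbol matched 1 of the 41388 genes in the deposited table, and all 10 passed the filter on low counts, among 18660 genes that did. Whole lung RNA was sequenced from adult mice collected at Zeitgeber time 7 (ZT7), 7 h after lights on. The mutant group (KO, 3 libraries) carried a deletion of the first exons of Zpbp2 together with promoter and enhancer sequence, on the C57BL/6J background, in a line made with cells of another strain (129S7). The control group (WT, 3 libraries) was C57BL/6J from the same colony, with no treatment in either group. The exact age and whether the libraries of a group came from littermates were not given in the sources used here.

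Type 2 cells are the cuboidal cells of the alveolus that make pulmonary surfactant, the lipid and protein film that lowers surface tension at the air interface. They pack phospholipid and the hydrophobic proteins SP-B and SP-C into lamellar bodies, lysosome-related organelles that fuse with the cell surface, and they secrete the collectins SP-A and SP-D, which bind lipid and microbes. They take up and rebuild used lipid, and they are the progenitors of the flat type 1 cells. Club cells of the small airways also make some surfactant proteins.

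Total counts ranged from 59134950 to 71354388 per library. The targeted gene Zpbp2 was counted 20, 15 and 7 times in the WT libraries, 1 time in KO1 and 0 times in KO2 and KO3. KO2 and KO3 were the closest pair, with a variance of 3.32 times that of counting for genes above 20000 counts, against 147 between KO1 and KO2, 51.6 between WT1 and WT2, and 32.4 between WT1 and WT3. For genes of 20 to 200 counts the ratio was 1.71 for KO2 and KO3 and 1.86 for WT1 and WT2, so that low counts did not set the KO pair apart. The labels and the study's methods give KO2 and KO3 as different mice, and their counts alone cannot settle this. Summing them as 1 sample departs from that description and leaves 3 samples of WT and 2 of KO. Kept separate, the 6 libraries gave 3402 called genes in place of 426, and 8 of the 10 genes in place of 5. WT3 and KO1 stood apart through 15 squamous epithelium genes, which summed to 5112 and 9716 CPM (counts per 1e6 counts, with TMM-scaled library sizes) there and to between 12.3 and 18.0 CPM in the other libraries, in some of which Krt6a and Dsg3 were at 0. All 10 adipocyte genes were below the WT range in KO, with sums of 341 to 382 CPM against 1037 to 1545 CPM, cardiomyocyte genes summed to 1231 to 1726 CPM against 2527 to 6816 CPM, and erythroid genes to 18997 and 19742 CPM in KO2 and KO3 against 2400 to 5523 CPM in the others. In whole lung RNA, more cells of a type and more RNA per cell cannot be told apart.

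The question put to the 10 genes was whether their RNA levels differed between KO and WT lungs. All 4 surfactant protein genes and Sfta2 rose in KO, by 1.35-fold to 1.69-fold, while the membrane, lysosomal and enzyme genes Abca3, Slc34a2, Lamp3, Lpcat1 and Napsa did not pass the test. Thus 5 of 10 genes were called higher and 0 lower with the quasi-likelihood test of edgeR at an adjusted p of at most 0.05, where 2.28% of all genes tested were called, 1.38% higher and 0.906% lower. These 5 calls were lost with a correction for gene length and GC content, and when any 1 WT library or KO1 was left out (0 of 10 called each time), and the exact test of edgeR called only Sfta2. With no filter on low counts, 2 of the 10 genes were called, Sftpd and Sfta2. The correction for length and GC content also took the log2 fold change of Sftpc from 0.62 to 0.36 and that of Sftpb from 0.49 to 0.25. The median log2 fold change of the 10 was 0.41, against 0.02 over all genes tested. Together the 10 genes took 2.27% to 2.32% of the counts of a WT library and 3.10% to 3.23% of a KO library, and the genotypes did not overlap. Most of this share was Sftpc. The 5 called genes took 1.91% to 1.96% in WT and 2.72% to 2.84% in KO. The other 5 genes took 0.356% to 0.366% in WT and 0.385% to 0.398% in KO.

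**Figure D1:**
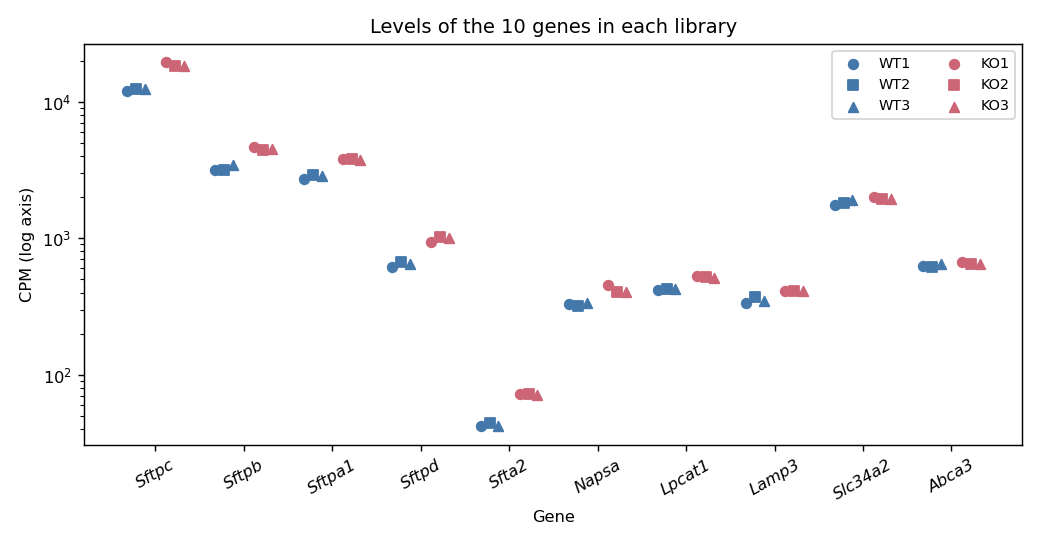
Level of each of the 10 genes (CPM, log axis) in the 3 WT libraries (blue) and the 3 KO libraries (red), with 1 point per library. Sftpc sits between 12103 and 12524 CPM in WT and between 18211 and 19536 CPM in KO, while the Abca3 points of both genotypes lie side by side.

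Sftpc (ENSMUSG00000022097) encodes SP-C, a small hydrophobic peptide cut from a membrane-bound precursor and the protein most restricted to type 2 cells. It lies on the minus strand of chromosome 14, from 70520949 to 70524081 of GRCm38. Its level was 12103, 12381 and 12524 CPM in WT1 to WT3 and 19536, 18368 and 18211 CPM in KO1 to KO3. Every KO library was above every WT library, and Sftpc ranked second among all genes by level in both genotypes. The WT mean was 12336 ± 214 CPM (SD, n = 3) and the KO mean 18913 ± 882 CPM (SD, n = 2). On the log2 scale the fold change was 0.62 (SE 0.05, edgeR adjusted p 0.0446), and 0.36 with the length and GC correction (adjusted p 0.277).

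Sftpb (ENSMUSG00000056370, chromosome 6, plus strand, 72304610 to 72314371) encodes SP-B, without which lamellar bodies do not form properly and newborns cannot breathe. It was at 3190, 3164 and 3442 CPM in WT and at 4666, 4467 and 4493 CPM in KO. The genotypes did not overlap, and the highest library of each genotype was one of the pair with squamous transcripts. The log2 fold change was 0.49 (SE 0.06, edgeR adjusted p 0.0446), and 0.25 with the length and GC correction (adjusted p 0.225).

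The collectin genes Sftpa1 and Sftpd lie close together on chromosome 14. Sftpa1 (ENSMUSG00000021789, plus strand, 41131782 to 41136452) encodes SP-A, the most abundant surfactant protein by mass, and was at 2715, 2900 and 2853 CPM in WT and at 3825, 3782 and 3743 CPM in KO. Its KO libraries lay within 1.02-fold of each other and above all WT libraries, with a log2 fold change of 0.43 (SE 0.06, edgeR adjusted p 0.0446). Sftpd (ENSMUSG00000021795, minus strand, 41172214 to 41185149) encodes SP-D, which also holds surfactant lipid at its normal pool size. It was at 611, 667 and 652 CPM in WT and at 943, 1014 and 1000 CPM in KO, so that KO1 was the lowest of the KO libraries here, whereas it was the highest for Sftpc, Sftpb and Sftpa1. The log2 fold change of Sftpd was 0.60 (SE 0.07, edgeR adjusted p 0.0446).

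Sfta2 (ENSMUSG00000090509, chromosome 17, plus strand, 35601549 to 35650571) encodes a small secreted protein found with surfactant, whose function is little known. It had the lowest level of the 10 genes in CPM and the largest log2 fold change, 0.75 (SE 0.05, edgeR adjusted p 0.0342). Its libraries were at 41.7, 44.2 and 42.2 CPM in WT and at 71.9, 71.9 and 71.1 CPM in KO. The lowest KO library was 1.61-fold above the highest WT library.

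Of the lamellar body genes, Abca3 (ENSMUSG00000024130, chromosome 17, plus strand, 24351950 to 24410201) encodes the transporter that moves phospholipid into the organelle. It was at 623, 619 and 648 CPM in WT and at 673, 647 and 650 CPM in KO, and was the only one of the 10 genes whose genotypes overlapped. Its log2 fold change was 0.07 with a 95% confidence interval of -0.07 to 0.22 (edgeR adjusted p 0.454), an interval that leaves out the estimates of all 5 called genes. Exons of Abca3 overlap those of a transcript on the other strand, D330041H03Rik, and strand use in counting was not given, so reads of that stretch are uncertain.

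Lamp3 (ENSMUSG00000041247, chromosome 16, minus strand, 19653378 to 19706375) encodes a membrane protein of lamellar bodies that mature dendritic cells also make. It was at 336, 372 and 345 CPM in WT and at 412, 409 and 408 CPM in KO, without overlap. The log2 fold change of 0.23 (95% interval 0.07 to 0.39) did not pass (edgeR adjusted p 0.102). The 7 markers of mature dendritic cells summed to 108 to 114 CPM in WT and 116 to 118 CPM in KO, with 0 of 7 called and 0 at an unadjusted p under 0.05.

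Napsa (ENSMUSG00000002204, chromosome 7, plus strand, 44572380 to 44586862) encodes napsin A, the aspartic protease that trims the SP-B precursor. It was at 330, 316 and 336 CPM in WT and at 457, 401 and 402 CPM in KO, where KO1 stood above the other KO libraries. Its log2 fold change of 0.40 (95% interval 0.21 to 0.58) was close to that of Sftpa1, but its edgeR adjusted p was 0.0577. Its exons overlap those of an antisense gene, Gm15396, so its counts carry the same uncertainty.

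The remaining genes serve surfactant lipid. Lpcat1 (ENSMUSG00000021608, chromosome 13, plus strand, 73467197 to 73516422) encodes the acyltransferase that makes the saturated phosphatidylcholine of surfactant, and was at 416, 421 and 426 CPM in WT and at 529, 516 and 511 CPM in KO. Its WT libraries lay within 1.02-fold of each other, the closest of the 10 genes, and its log2 fold change of 0.31 (95% interval 0.18 to 0.44) had an edgeR adjusted p of 0.0510. Slc34a2 (ENSMUSG00000029188, chromosome 5, plus strand, 53038081 to 53071664) encodes the sodium phosphate cotransporter of the type 2 cell surface, which recovers phosphate from used phospholipid. It was at 1764, 1798 and 1893 CPM in WT and at 2010, 1925 and 1935 CPM in KO, apart by only 1.02-fold between the nearest libraries. The log2 fold change was 0.12 (95% interval -0.03 to 0.27, edgeR adjusted p 0.269).

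For 9 of the 10 genes the genotypes were fully separated with KO on top, an order that 20.0% of all genes tested had, and 20.7% had the reverse order. None of the 10 genes lies on chromosome 11, which holds Zpbp2. The differences were also taken within like libraries, with no test. Between KO1 and WT3, which both held squamous transcripts, Sftpc differed by 0.64 on the log2 scale, Sftpd by 0.53 and Abca3 by 0.05. Between the mean of KO2 and KO3 and the mean of WT1 and WT2, the same genes differed by 0.58, 0.66 and 0.06. In the fit without WT3 and KO1 the same 5 genes were called, against 6.01% of all genes called higher, with edgeR adjusted p values of 0.00209 for Sfta2 to 0.0195 for Sftpa1, on 2 WT libraries and 1 summed KO sample that is assumed to vary like WT.

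**Figure D2:**
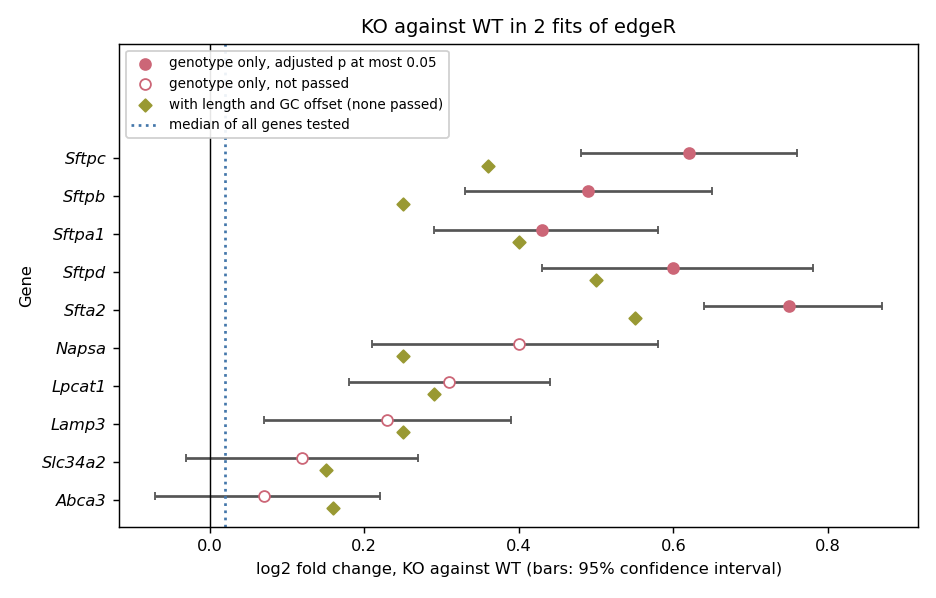
Log2 fold change of each of the 10 genes, KO against WT, with its 95% confidence interval (circles, filled where the adjusted p was at most 0.05), and the estimate with a correction for gene length and GC content (diamonds, none of which passed). The 5 filled circles run from 0.43 for Sftpa1 to 0.75 for Sfta2, and the dotted line is the median of all genes tested, 0.02.

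When all 6 libraries were kept as separate samples, 8 of the 10 genes were called higher, against 9.81% of all genes in that fit. Lpcat1, Napsa and Lamp3 then passed (edgeR adjusted p 0.00887, 0.0175 and 0.0330), and Slc34a2 and Abca3 did not (0.166 and 0.374). DESeq2 on the summed samples called the same 8 genes, against 10.6% of all genes called higher. With 1 WT library left out, 0 of the 10 genes and 0 genes in all were called by edgeR, with 7 or 8 of the 10 at an unadjusted p under 0.05, against 18.1% to 22.9% of all genes. Without KO1 it was 0 of the 10 (7 at an unadjusted p under 0.05, against 23.5% of all genes) and 17 genes in all, with the lone summed KO sample assumed to vary like WT. Over the libraries left out, the log2 fold change of Sftpc ranged from 0.57 to 0.63. Without KO1, Napsa went from 0.40 to 0.29, Slc34a2 from 0.12 to 0.08 and Abca3 from 0.07 to 0.04, and the median of the 10 from 0.41 to 0.35.

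The 10 genes also differed from each other in how far they moved. For this the log2 ratio of each gene to the mean of the 10 genes was taken in each library, a measure that is free of the scaling between libraries. The ratios of a library sum to 0 by construction, so a gene that moved less than the mean must fall in this measure even where its level did not. Relative to that mean, Sfta2 went from -4.30 ± 0.04 (SD, n = 3) in WT to -3.95 ± 0.02 (SD, n = 2) in KO, Sftpc from 3.88 ± 0.01 to 4.10 ± 0.04, and Sftpd from -0.38 ± 0.04 to -0.18 ± 0.10. Abca3 went the other way, from -0.41 ± 0.03 to -0.74 ± 0.01, as did Slc34a2, from 1.12 ± 0.03 to 0.83 ± 0.01. The genotypes did not overlap for Sfta2, Sftpc, Sftpd and Sftpb, which were higher in this ratio in KO, nor for Abca3, Slc34a2, Lamp3 and Lpcat1, which were lower, while Sftpa1 and Napsa overlapped. The exact permutation test (two-sided, 10 arrangements of 3 and 2 samples) gave p = 0.200 for each of those 8 genes, the smallest that 3 against 2 samples allow, so this test could not reach 0.05 whatever the values and says nothing for or against a difference.

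**Figure D3:**
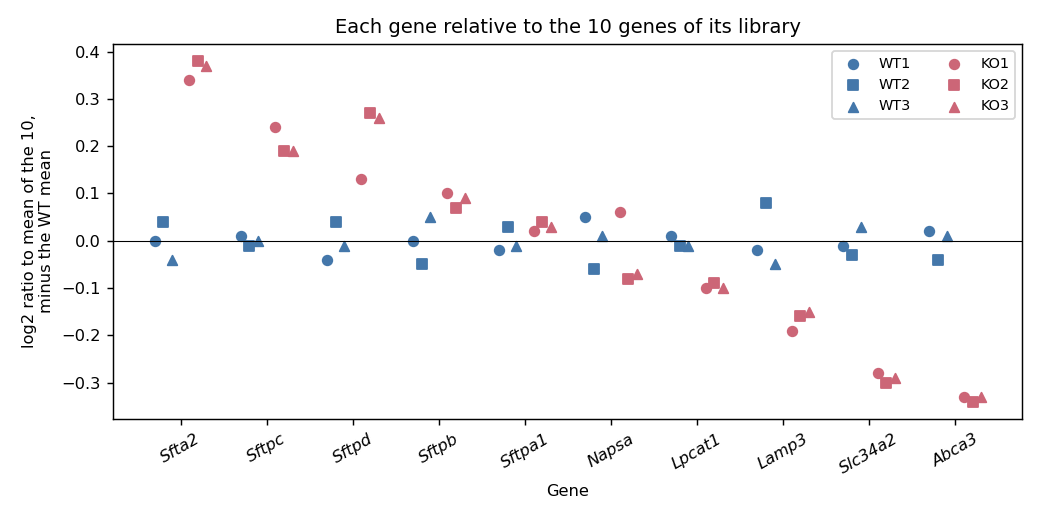
Log2 ratio of each gene to the mean of the 10 genes in the same library, minus the mean of the WT libraries, with 1 point per library (WT blue, KO red). The KO points lie above the WT points from Sfta2 to Sftpb at the left and below them from Lpcat1 to Abca3 at the right.

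Levels per length of exon put the genes in order. As CPM per kilobase, Sftpc was at 11930 ± 207 in WT (SD, n = 3), followed by Sftpb at 1659 ± 77.9, Sftpa1 at 987 ± 33.8, Slc34a2 at 363 ± 13.4 and Sftpd at 266 ± 11.9. Napsa (123 ± 3.86), Lamp3 (105 ± 5.62), Lpcat1 (90.9 ± 1.08), Abca3 (67.2 ± 1.69) and Sfta2 (39.3 ± 1.21) came after. In KO, Sftpd at 403 ± 18.8 CPM per kilobase (SD, n = 2) and Slc34a2 at 393 ± 11.3 lay within their spread of each other, and the rest kept their order.

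Fold changes in these libraries fell with gene length, and the 10 genes followed that trend. Across 18524 tested genes with a known exon length, which are not independent replicates, Spearman's rho between length and log2 fold change was -0.33. Over the 10 genes it was -0.95, a description of 10 points from the same 6 libraries. Sftpc and Sfta2, with 1034 and 1085 bases of exon, belong to the shortest decile of genes, whose median log2 fold change was 0.14 and of which 2.32% were called higher. Abca3, with 9374 bases, belongs to the longest decile, with a median of -0.18 and 0.0540% called higher. Each of the 10 genes lay above the median of its own decile. The deciles that hold Sftpb and Sftpd, and Sftpa1 and Napsa, had medians of 0.15 and 0.12, and those of Lamp3 and of Slc34a2 and Lpcat1 had 0.05 and -0.01.

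**Figure D4:**
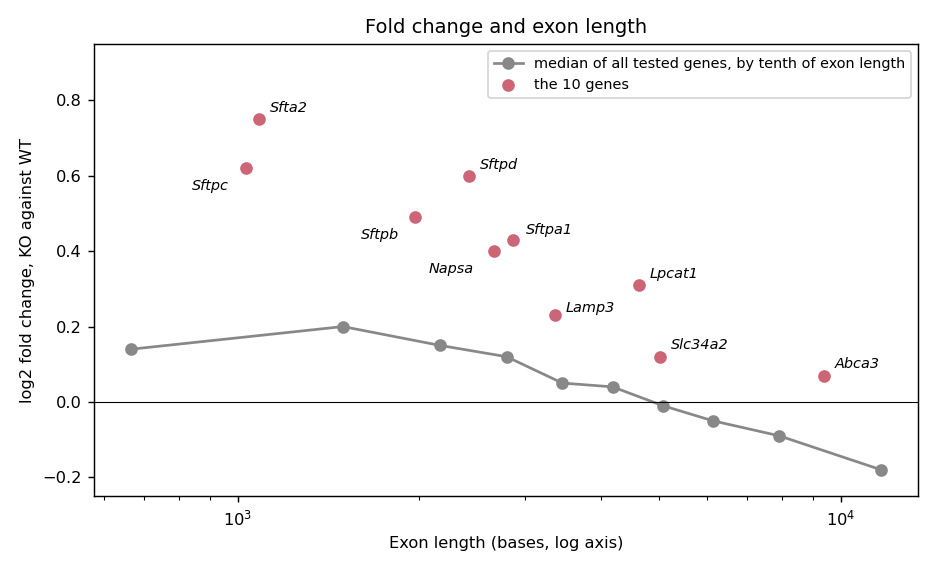
Log2 fold change, KO against WT, of the 10 genes (red) against exon length (bases, log axis), with the median of all tested genes in each decile of exon length (grey). The grey line falls from 0.20 in the second decile to -0.18 in the longest, and every red point lies above it.

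With a correction of each sample for length and GC content, the estimates drew together. Besides Sftpc and Sftpb, Sfta2 went from 0.75 to 0.55 and Sftpd from 0.60 to 0.50, while Sftpa1 went from 0.43 to 0.40 and Abca3 from 0.07 to 0.16. The median of the 10 was 0.27, against 0.01 over all genes. The 5 secreted genes, which are also the 5 called, had a median of 0.60 before the correction and 0.40 after it, and the other 5 had 0.23 and 0.25. After the correction the ranges overlapped, at 0.25 to 0.55 and 0.15 to 0.29, and the difference was not tested. In this fit edgeR called 0 of the 10 genes (adjusted p 0.123 for Sftpa1 to 0.334 for Slc34a2) and 0 of all genes, with 8 of the 10 at an unadjusted p under 0.05, against 18.4% of all genes. With the 6 libraries separate and the same correction, the 8 genes other than Abca3 and Slc34a2 were called, against 5.92% of all genes called higher.

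Promoter sequence is shown for 3 called genes and for 2 that were not, so that the windows of both can be read side by side. RefSeq (GRCm38.p6) gave a start site for 7 of the 10 genes. Sftpc, Sftpd and Napsa had no entry. The 250 bases before each start site are printed on the coding strand, with capitals for matches, on either strand, to CTCAAG (which holds the core bound by the lung factor NKX2-1), TGTTTAC or TGTTTGC (forkhead factors such as FOXA1 and FOXA2), TTGCNNAA (C/EBP factors) and TATAAA (the TATA box). The windows are chr14:41131538-41131787 for Sftpa1, chr6:72304360-72304609 for Sftpb, chr17:35649458-35649707 for Sfta2, chr17:24351773-24352022 for Abca3 and chr5:53049103-53049352 for Slc34a2, all on the plus strand.
Sftpa1: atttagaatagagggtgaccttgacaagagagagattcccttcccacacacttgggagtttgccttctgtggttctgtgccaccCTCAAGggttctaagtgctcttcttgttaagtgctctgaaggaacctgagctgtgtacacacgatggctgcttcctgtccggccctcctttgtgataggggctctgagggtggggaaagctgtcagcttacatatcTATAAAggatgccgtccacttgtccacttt
Sftpb: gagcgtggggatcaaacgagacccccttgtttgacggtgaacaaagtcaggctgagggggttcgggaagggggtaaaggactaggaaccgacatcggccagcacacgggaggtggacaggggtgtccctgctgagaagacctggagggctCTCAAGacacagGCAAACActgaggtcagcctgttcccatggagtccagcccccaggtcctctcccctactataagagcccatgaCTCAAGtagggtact
Sfta2: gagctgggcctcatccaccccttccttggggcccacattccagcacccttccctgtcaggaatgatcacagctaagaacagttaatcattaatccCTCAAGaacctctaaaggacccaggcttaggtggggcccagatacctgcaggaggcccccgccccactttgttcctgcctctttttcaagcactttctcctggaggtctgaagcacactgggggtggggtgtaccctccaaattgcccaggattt
Abca3: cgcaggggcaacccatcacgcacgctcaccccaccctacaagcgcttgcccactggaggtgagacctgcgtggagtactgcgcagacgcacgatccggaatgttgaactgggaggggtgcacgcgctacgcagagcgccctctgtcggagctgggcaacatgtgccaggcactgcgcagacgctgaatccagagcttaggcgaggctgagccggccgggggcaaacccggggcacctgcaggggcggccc
Slc34a2: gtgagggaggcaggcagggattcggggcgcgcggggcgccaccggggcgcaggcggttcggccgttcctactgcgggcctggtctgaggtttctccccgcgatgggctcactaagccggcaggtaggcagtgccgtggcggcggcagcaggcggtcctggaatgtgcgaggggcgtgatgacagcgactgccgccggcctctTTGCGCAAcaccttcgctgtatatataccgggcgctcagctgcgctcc

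CTCAAG was found in all 3 called genes with an entry, Sftpa1, Sftpb (at 2 places) and Sfta2, and in 0 of the 4 other genes with one, where 13.3% of 32851 RefSeq promoters of this length hold it. Only the whole string was counted. The Abca3 window holds its part CAAG, and CTTG for the other strand. The count therefore does not show which windows hold a shorter core, and the difference between called and other genes was not tested. In Sftpb the matches begin 100 and 15 bases before the start site, and the forkhead match TGTTTGC, on the other strand, begins 88 bases before it. TGTTTGC is found in 4.30% of promoters, and TGTTTAC, found in 3.17%, was matched in Lamp3, 92 bases before its start. TATAAA begins 30 bases before the start of Sftpa1 and is found in 12.4% of promoters. TTGCNNAA was matched in Slc34a2, 48 bases before its start and on both strands at that place, and is found in 9.56%. The windows of Abca3 and Lpcat1 held none of the 5 motifs. Those of Sfta2 and Slc34a2 lie well inside the gene spans given above, so sequence before the upstream ends of those spans was not read. GC content was 50.0%, 58.4% and 55.2% in Sftpa1, Sftpb and Sfta2, and 67.6% and 69.6% in Abca3 and Slc34a2.

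Other genes of type 2 cells were taken from a list of 27, of which 26 were in the table and tested. Of these, 3 rose, 0 fell and 23 did not pass, where 1.38% of all genes tested were called higher and 0.906% lower. The median log2 fold change was 0.29 (0.20 with the length and GC correction). At an unadjusted p under 0.05 there were 18 of the 26, against 27.3% of all genes tested. S100g, a calcium-binding protein, rose by 1.36-fold, from 43.1 ± 2.20 CPM (SD, n = 3) in WT to 58.5 ± 0.101 CPM in KO (SD, n = 2). Muc1, a membrane mucin of the apical surface, rose by 1.39-fold, from 237 ± 5.35 to 328 ± 7.95 CPM, and Mlc1, a membrane protein, by 1.45-fold, from 47.3 ± 2.09 to 68.2 ± 2.76 CPM, each with an edgeR adjusted p of 0.0446. These calls, and those of Hopx, Cd63, Npc2, Lpin1 and Mrc1 given with their lists, were lost with the length and GC correction and without any 1 WT library or KO1, and all but that of Lpin1 with the exact test. With the length and GC correction the log2 fold changes were 0.30 for S100g, 0.32 for Muc1, 0.42 for Mlc1 and 0.28 for Hopx. They were 0.37 for Cd63, 0.48 for Npc2, -0.52 for Lpin1 and -0.45 for Mrc1. With library size alone as the scaling, S100g and Hopx no longer passed (edgeR adjusted p 0.0526 for each), nor did Hopx with no filter on low counts (0.0532). For 18 of the 26 genes every KO library was above every WT library, against 20.0% of all genes tested, and for 2, Scd1 (log2 fold change -0.97) and Lrp2 (-0.24), every KO library was below, against 20.7%. Neither of these, named after their values were seen, passed the test (edgeR adjusted p 0.0832 and 0.148). By the mean over the 6 libraries the most abundant were Lyz2 (lysozyme, also made by macrophages) and Cbr2 (a carbonyl reductase, also of club cells), while in WT alone Scd1, at 3404 CPM, was above Cbr2, at 3147 CPM. Lyz2 and Cbr2 had log2 fold changes of 0.28 and 0.66 with edgeR adjusted p values of 0.119 and 0.0680. Cbr2 was at 3056 to 3251 CPM in WT, 4206 CPM in KO1 and 5667 and 5797 CPM in KO2 and KO3.

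**Figure D5:**
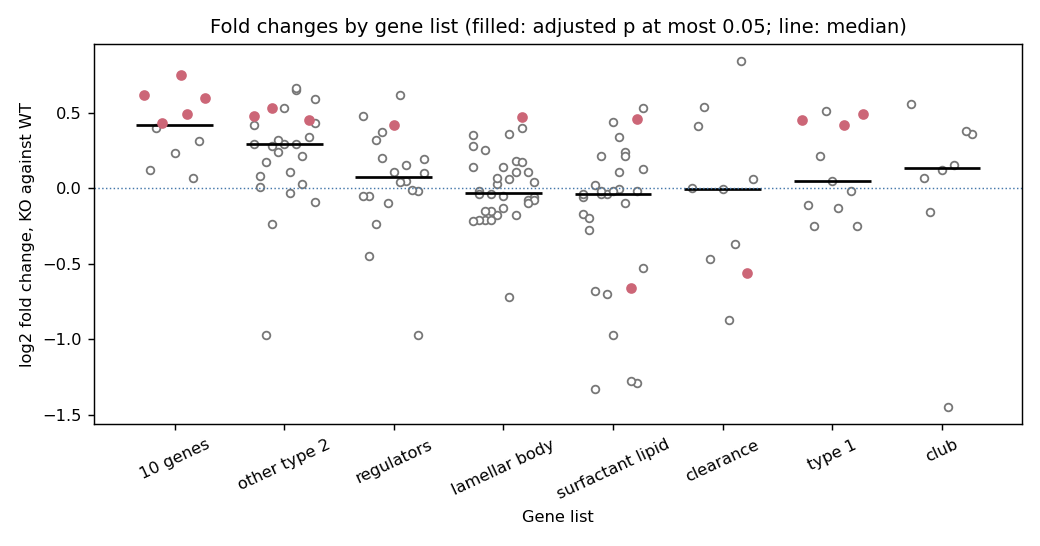
Log2 fold changes, KO against WT, of the 10 genes and of the tested genes of 7 lists, with 1 point per gene (filled red where the adjusted p was at most 0.05) and the median of each list as a line. The medians are 0.41 for the 10 genes, 0.29 for other type 2 genes, 0.08 for regulators, -0.03 for the lamellar body list and -0.04 for the surfactant lipid list. With the length and GC correction, which is not drawn, these medians are 0.27, 0.20, 0.12, 0.03 and 0.03.

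Regulators of type 2 cell genes were a list of 20, all tested. Of these 1 rose, 0 fell and 19 did not pass, with a median of 0.08, where 2.28% of all genes tested were called. At an unadjusted p under 0.05 there were 8 of the 20, against 27.3% of all genes tested, the share to set beside the unadjusted counts of the other lists. Hopx, a homeodomain cofactor also made by type 1 cells, was the gene that rose (log2 fold change 0.42, edgeR adjusted p 0.0466). The estimates of the list ran from -0.97 to 0.62, with 12 above 0 and 8 below. Nkx2-1, the homeodomain factor that activates surfactant protein genes, was chosen after its values were seen. It was at 149, 158 and 161 CPM in WT and at 198, 237 and 234 CPM in KO, with an edgeR adjusted p of 0.0586. The most abundant member besides Hopx, Ctnnb1 (beta-catenin), differed by 0.05 on the log2 scale (edgeR adjusted p 0.592), which turned to -0.003 when libraries were scaled by their size alone.

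Genes of lamellar body formation, trafficking and release showed no common direction. Of 34 genes, 1 rose, 0 fell and 33 did not pass, a share near the 2.28% of all genes tested, with a median log2 fold change of -0.03. Cd63, a tetraspanin of late endosomes and lamellar bodies, rose from 54.9 ± 1.30 to 76.0 ± 1.88 CPM (edgeR adjusted p 0.0446). The abundant members Adgrf5, a receptor that limits surfactant secretion and that endothelium also makes, and Lamp1 had log2 fold changes of -0.22 and 0.14 (adjusted p 0.101 and 0.201).

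The surfactant lipid list also spread in both directions, with 1 gene higher, 1 lower and 28 not passed of 30, where 1.38% of all genes tested were called higher and 0.906% lower, and a median of -0.04. Npc2, a cholesterol-binding protein of lysosomes and lamellar bodies, rose from 803 ± 18.4 to 1102 ± 11.6 CPM, and Lpin1, a phosphatidate phosphatase, fell from 85.0 ± 7.81 to 53.6 ± 0.773 CPM, both with an edgeR adjusted p of 0.0446. The most abundant members by the mean over the 6 libraries were Scd1, a fatty acid desaturase that adipocytes also make, and Prdx6, a phospholipase and peroxidase of surfactant turnover. They had log2 fold changes of -0.97 and 0.21 (adjusted p 0.0832 and 0.212). In WT alone Fasn, at 1296 CPM, was above Prdx6, at 974 CPM, and had a log2 fold change of -1.29 (edgeR adjusted p 0.0893). Every KO library was below every WT library for 10 genes of the list, Fasn and Scd1 among them, and above for 6, against 20.7% and 20.0% of all genes tested. Scd1 was at 2529, 4375 and 3307 CPM in WT, where the 10 adipocyte genes summed to 1109, 1545 and 1037 CPM, and at 1642 to 1813 CPM in KO, where they summed to 341 to 382 CPM. The part of adipocyte RNA in this list was not tested.

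Surfactant is cleared largely by alveolar macrophages under the cytokine GM-CSF. Of 10 genes of that process, 0 rose, 1 fell and 9 did not pass, where 0.906% of all genes tested were called lower. At an unadjusted p under 0.05 there were 6 of the 10, against 27.3% of all genes tested. Mrc1, the macrophage mannose receptor, fell from 53.1 ± 4.37 to 35.9 ± 0.579 CPM (edgeR adjusted p 0.0474). The abundant members Bhlhe40 and Abcg1 had log2 fold changes of 0.41 and -0.0045 (adjusted p 0.0910 and 0.982), and that of Abcg1 changed sign with the correction for length and GC content. Of the other collectins, 4 of 5 were tested and 0 passed, with 0 at an unadjusted p under 0.05. Colec12, a scavenger receptor, was at 136 to 150 CPM in WT and 115 to 136 CPM in KO (log2 fold change -0.18, which became 0.0044 with that correction), while Mbl1 (0.60), Colec11 (-0.42) and Colec10 (0.36) stayed under 4 CPM in every library. Mbl2 was at 0 counts in WT and above 3 counts in a KO library, and did not pass the filter.

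Type 1 and club cells, the neighbours of type 2 cells in the epithelium, were measured beside them. Of 11 type 1 genes 3 rose, Ager, Aqp5 and Hopx, and 8 did not pass, where 1.38% of all genes tested were called higher, with a median of 0.05. These 3 calls were lost with the length and GC correction and without any 1 WT library, where 0 of all genes were called. The 11 type 1 genes summed to 7276 to 7842 CPM in WT and 8116 to 8605 CPM in KO. Among them Ager, a receptor of the type 1 cell membrane, was at 2035 to 2087 CPM in WT and 2764 to 2874 CPM in KO. Emp2 was at 1612 to 1715 CPM in WT and 1468 to 1578 CPM in KO. Of 8 club cell genes 0 were called (3 at an unadjusted p under 0.05). Their estimates ran from -1.45 to 0.56, with 6 above 0 and 2 below. For 2 of the 8 every KO library was above every WT library and for 1 below, against 20.0% and 20.7% of all genes tested. Their sum was 29437 to 34669 CPM in WT and 38132 to 50769 CPM in KO. Most of it was Scgb1a1, the main secretory protein of club cells. Scgb1a1 was at 23360 to 27438 CPM in WT, 32061 CPM in KO1 and 42765 and 42544 CPM in KO2 and KO3. Cyp2f2 was at 3266 to 3671 CPM in WT and at 3849, 4908 and 4989 CPM in KO1 to KO3. The part of club cells in the levels of the surfactant protein genes was not tested.

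Of the other marker lists, some had medians near that of the 10 genes. The median log2 fold change was 0.40 for ciliated, 0.34 for T cell, 0.21 for smooth muscle, 0.13 for club, 0.03 for alveolar macrophage, -0.05 for fibroblast, -0.08 for endothelial and -0.13 for B cell genes. It was farther from 0 for adipocyte (-2.23), erythroid (1.70), squamous (1.38) and cardiomyocyte (-1.23) genes. With the length and GC correction the median was 0.22 for ciliated, 0.19 for T cell, 0.08 for smooth muscle and 0.06 for club genes. It was then -0.11 for alveolar macrophage, -0.04 for fibroblast, 0.02 for endothelial and -0.35 for B cell genes. For adipocyte, erythroid, squamous and cardiomyocyte genes it was -2.38, 1.65, 1.24 and -1.33. Against 2.28% of all genes tested, ciliated cell genes had 1 call of 10 (Tppp3, higher), fibroblast genes 1 of 10 (Dcn, lower), alveolar macrophage genes 1 of 10 (Mrc1, lower), and endothelial, smooth muscle, T cell and B cell genes 0 of 12, 6, 8 and 6 with edgeR, against 6, 0, 1 and 2 at an unadjusted p under 0.05. Endothelial genes summed to 6707 to 6893 CPM in WT and 6089 to 7048 CPM in KO, and fibroblast genes to 5401 to 6230 and 5032 to 6294 CPM. Of the adipocyte list Plin1, Lipe and Pck1 fell, and 10 of 10 were at an unadjusted p under 0.05, against 27.3% of all genes tested. Erythroid, cardiomyocyte and squamous genes had 0 calls of 7, 10 and 15 (2, 5 and 0 at that level). So were 4 of 10 ciliated, 2 of 10 fibroblast, 6 of 10 alveolar macrophage, 4 of 11 type 1, 12 of 34 lamellar body and 12 of 30 surfactant lipid genes. The calls of Tppp3, Dcn, Plin1, Lipe and Pck1 were lost with the length and GC correction and without any 1 WT library, where 0 of all genes were called.

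The genes whose pattern over the 6 libraries was most like that of Sftpc, by the root mean square difference of centred log2 CPM among 14402 genes of at least 1 CPM in every library, were Nenf (0.0306), Fdx1l (0.0337), Nr2f6 (0.0383), 1810037I17Rik (0.0454) and Rplp1 (0.0457). Of the 10 genes the nearest to Sftpc were Sftpd and Sftpb, at ranks 46 and 49, and Abca3 was at rank 4695. For Lamp3 the closest were Mrps25 (0.0159), Chmp5, Nek3, 1110008F13Rik and 9130401M01Rik (0.0214), and the nearest of the 10 genes was Lpcat1, at rank 452.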

How the data were processed

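The deposited table holds raw counts of reads for each gene. The authors trimmed and filtered the reads, aligned them to GRCm38 with STAR and counted them per gene with HTSeq, and the submitters' processing notes name Trimmomatic 0.36, STAR 2.5.3a, Picard 2.9.0 and HTSeq 0.6.0. Strand use, read length and annotation release were not given in the sources used here. Genes that overlap another gene are therefore uncertain, and duplicate reads are not independent molecules.

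Differences were tested with edgeR 4.0.16 under R 4.3.3 (filterByExpr, TMM, glmQLFit, glmQLFTest) over all genes, after summing KO2 and KO3, with Benjamini-Hochberg adjustment and a threshold of 0.05, two-sided. This test was first run on simulated counts that held no length trend and no squamous libraries. That run cannot show how the test behaves with them. A mean ± SD takes the mean of KO2 and KO3 as 1 replicate. P-values measure only the spread between these samples. Exon lengths, GC content and positions come from GENCODE M21 (GRCm38), which holds 97.5% of the identifiers. The offset for length and GC was a spline fit (5 degrees of freedom each) to each sample. Alternatives were other scalings, filters, tools (DESeq2 1.42.0, the exact test), separate libraries, a replicate block, a term for squamous transcripts and leaving out each library.

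The 10 genes, the lists, the named genes and the summing were chosen with earlier results of these data known. Named in full were the 10 genes, and from each list the called genes (up to 6) and the 2 most abundant, all collectins, the most abundant markers of other cell types, and the 5 genes most like Sftpc and Lamp3.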

Additional observations from a re-analysis of the deposited data

How the results depend on the processing

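The estimate of each of the 10 genes was above 0 in the 20 alternatives run, with 0.02 to 0.16 for Abca3 and 0.55 to 0.77 for Sfta2 on the log2 scale. The number called out of 10, and of all genes, was 5 and 306 with library size alone as the scaling (median of the 10 0.36), 6 and 937 with at least 10 counts in every library, and 2 and 412 with no filter. It was 8 and 3402 with the 6 libraries separate, 6 and 1157 with the replicate block in that fit, 1 and 209 with the exact test, 8 and 3908 with DESeq2, and 7 and 2267 with the squamous term. The length and GC offset gave 0 and 0 (median 0.27), 8 and 1987 with the 6 libraries separate (0.29), and 0 and 8 with the replicate block as well (0.29). The 2 alternatives chosen after seeing the data gave 8 and 6005 (squamous term, 6 libraries separate) and 5 and 2256 (without WT3 and KO1, median 0.37). Leaving out each library gave 0 to 5 and 0 to 418, with medians of 0.35 to 0.42.

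Of the other named genes, Abcg1 changed sign with the length and GC offset (0.05), in that fit with separate libraries (0.03) and with the block (0.04), without WT replicate 3 (0.07, in a range of -0.06 to 0.07 over the libraries left out) and without WT3 and KO1 (0.03), as did Colec12 with the offset (0.0044) and Ctnnb1 with library size alone (-0.003). Replicate numbers did not pair the samples, since the deviations of same-numbered libraries correlated at -0.518, 0.756 and -0.777 across 13961 genes. The cause of the differences between settings was not tested. The 10 genes had at least 2528 counts in every library, and the effect of depth was not tested.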
